A study of Mus musculus with 12 samples.

Results

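The cytosolic ribosomal protein genes were followed through RNA-seq of mouse lung cancer cells. They were taken from the count table by symbol: Rps or Rpl followed by a number and at most a paralog letter, plus Rplp0, Rplp1, Rplp2 and Rpsa, without pseudogene rows and without the Rps6k kinases. The rule found 84 genes of 30743 rows, 33 of the small ribosomal subunit and 51 of the large subunit. The rule used no measured value. A filter on low counts kept 80 of the 84 for testing, and the other 4, Rpl34, Rpl3l, Rpl39l and Rpl10l, held between 1 and 45 counts over all libraries.

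The cells were sorted from dissociated tumours of mice of mixed BL6/129 strain, after cells stained for CD45, CD31, F4/80 or Ter119 had been excluded. All groups share the background that the labels call KT, which they do not spell out, and no age is given. The 4 KT libraries carry no further allele. The 3 KT;Lkb1f/f libraries (Lkb1-deleted below) carry floxed alleles of Lkb1, the gene Stk11. The 5 remaining libraries (Sik-targeted) carry the Cas9 allele H11LSL-Cas9 with guides against Sik genes, 3 of them titled sgSik1 and 2 titled sgSik1-3. The titles do not say which genes the range in sgSik1-3 covers. The alternative names of KT replicates 2, 3 and 4 mention lentiviral Cre and that of KT replicate 1 does not. Nothing in the labels read here states that libraries of a group came from separate animals, so p-values measure the spread between these libraries, which may be technical.

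A ribosome is built from ribosomal RNA and a fixed set of proteins, most of them present once per particle, and the genes for these proteins are usually expressed together at high levels in growing cells. Their messenger RNAs begin with a run of pyrimidines, the terminal oligopyrimidine or TOP motif, through which mTORC1 and the RNA-binding protein Larp1 control their translation and stability. MYC raises transcription of ribosomal protein genes in many tumours. Lkb1 activates AMPK, which restrains mTORC1, and it also activates the salt-inducible kinases, to which Sik1, Sik2 and Sik3 belong. The study compared deletion of Lkb1 and targeting of Sik genes with tumours that carry neither change.

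The DNA around the transcription start was searched for a pyrimidine motif, which was found in under 50% of the members with a sequence but more often than among all genes. Each line below gives 30 bases of mouse genome GRCm38.p6, 5′ to 3′ on the gene's strand, from RefSeq. They run from 20 bases before to 10 bases from the start on, except for Rps26, with 10 before and 20 from the start on. Capitals mark TCTTT or CCTTT on the sense strand. The members were chosen from those with the smallest p in the comparisons below and the stalk genes, 4 with the motif and 2 without it.

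Rpl4 (chr9:64173367-64173396, plus strand): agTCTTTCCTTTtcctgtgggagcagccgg
Rps26 (chr10:128626487-128626516, minus strand): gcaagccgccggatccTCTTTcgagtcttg
Rps6 (chr4:86857358-86857387, minus strand): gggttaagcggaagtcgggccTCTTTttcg
Rplp2 (chr7:141447631-141447660, plus strand): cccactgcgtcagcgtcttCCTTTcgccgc
Rplp0 (chr5:115559447-115559476, plus strand): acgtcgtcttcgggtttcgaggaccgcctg
Rps13 (chr7:116334181-116334210, minus strand): cgcgcgagagcaaacgtcggtgagtggcgt

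Of the 84 members, 63 had a promoter sequence in the RefSeq table. Within 30 bases on either side of the start, 28 of these 63 (44.4%) held TCTTT or CCTTT on the sense strand and 7 (11.1%) held it on the antisense strand. Over all 27025 genes of the same table the shares were 15.4% and 16.4%. Rplp0 and Rps13 hold neither word in the bases shown, although the Rplp0 window has several runs of pyrimidines. A match describes letters only and is not evidence that a factor acts there.

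Total counts per library ran from 3847760 to 13955181. The 4 most abundant transcripts (AK140265, Rn45s, Malat1 and GU332589) took from 18.4% (KT replicate 1) to 74.2% (sgSik1 replicate 1) of all counts, so the scaling between libraries bears on every level below. Levels are counts scaled to library size (CPM), with sizes adjusted by the trimmed mean of M values (TMM), whose factors ran from 0.394 in sgSik1 replicate 1 to 1.916 in KT replicate 3. KT replicate 1 and sgSik1 replicate 1 stood apart from the others in the ribosomal protein genes, and the leading results for those genes are given with and without them. All 8 epithelial markers were detected in every group, with summed levels of 972 to 1370 CPM in KT and 1560 to 5330 CPM elsewhere. The 6 lineage markers of alveolar lung tumours (among them Nkx2-1 and Sftpc) were also detected in every group, at 8240 to 72100 CPM in sum. The 11 macrophage markers summed to 5600 to 13600 CPM in KT, 713 to 2030 in Lkb1-deleted, 89.4 to 1090 in sgSik1 and 101 to 186 CPM in sgSik1-3 libraries. Most of these sums was Lyz2, which averaged 8190 CPM in KT, 1560 in Lkb1-deleted, 407 in sgSik1 and 121 CPM in sgSik1-3. The sums therefore mainly follow this 1 gene and are not a measure of macrophage content. In KT, Chi3l3 averaged 445 CPM. Marco, Itgax, Csf1r and Mrc1 averaged 10.8, 11.3, 4.63 and 14.8 CPM there. Emr1, the F4/80 gene, was at 0 in Lkb1-deleted and sgSik1 libraries, and C1qa was at 0 in all libraries but KT. Of 7 macrophage markers tested, edgeR called 5 lower in Sik-targeted than in KT, where 12.4% of all tested genes were called. It called 3 of the 7 lower in Lkb1-deleted than in KT, where 1.16% were called. Marco, Chi3l3 and Itgax were called in both comparisons. Of 4 leukocyte markers tested, edgeR called Laptm5 (log2 change -5.04, adjusted p 0.00248) and Ptprc (-3.46, adjusted p 0.0218) lower in Sik-targeted than in KT. Ptprc (-6.29, adjusted p 0.0408) was also called lower in Lkb1-deleted than in KT. Cd53 went the other way, uncalled, at 3.75 (edgeR adjusted p 0.0642) in Sik-targeted and 3.33 (adjusted p 0.27) in Lkb1-deleted. Lcp1 had -0.32 and -0.53, also uncalled. Summed leukocyte markers ran from 162 to 226 CPM in KT and 79.2 to 312 CPM in Lkb1-deleted. They ran from 98.8 to 231 CPM in sgSik1 and 195 to 312 CPM in sgSik1-3 libraries. Of 5 fibroblast markers tested, Col3a1 (-4.19, adjusted p 0.0186) and Pdgfra (-4.03, adjusted p 0.0252) were called lower in Sik-targeted than in KT. Summed fibroblast markers ran from 27.5 to 375 CPM in KT, 1.59 to 378 in Lkb1-deleted, 13 to 34.9 in sgSik1 and 18.5 to 38.8 CPM in sgSik1-3 libraries. In Lkb1-deleted against Sik-targeted 0 of the 5 were called and 4 had an unadjusted p under 0.05, all higher. The part of these markers in the results below was not tested. In such bulk samples, fewer cells of a type and less RNA per cell cannot be told apart.

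The family as a whole took about 1% of counts in most libraries. In KT replicates 1 to 4 it took 2.98%, 1.06%, 1.01% and 1.16% of counts, a mean of 1.55% ± 0.954 (SD, n = 4). In Lkb1-deleted replicates 1 to 3 it took 0.822%, 0.968% and 0.711%, a mean of 0.834% ± 0.129 (SD, n = 3). KT replicate 1 had the highest share of the 12 libraries, and the other KT libraries lay just above the Lkb1-deleted ones. In sgSik1 replicates 1 to 3 the shares were 0.974%, 0.623% and 1.36% (0.986% ± 0.369, SD, n = 3), and in sgSik1-3 they were 0.809% and 1.13% (0.97% ± 0.227, SD, n = 2). These ranges overlap those of both other genotypes.

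The order of libraries changed with the denominator. Without the 4 most abundant transcripts, the shares averaged 2.22% ± 1.02 in KT (SD, n = 4) and 1.71% ± 0.0666 in Lkb1-deleted (SD, n = 3). They averaged 2.52% ± 1.13 in sgSik1 (SD, n = 3) and 2.68% ± 0.82 in sgSik1-3 libraries (SD, n = 2). On TMM sizes the summed levels were 17983, 6269, 5298 and 10188 CPM in KT and 9490, 8710 and 8384 CPM in Lkb1-deleted libraries. They were 24722, 8280 and 10496 CPM in sgSik1 and 10869 and 16331 CPM in sgSik1-3 libraries. On that scale sgSik1 replicate 1 was highest and KT replicates 2 and 3 lowest, while the Lkb1-deleted libraries lay close together inside the KT range.

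**Figure D1:**
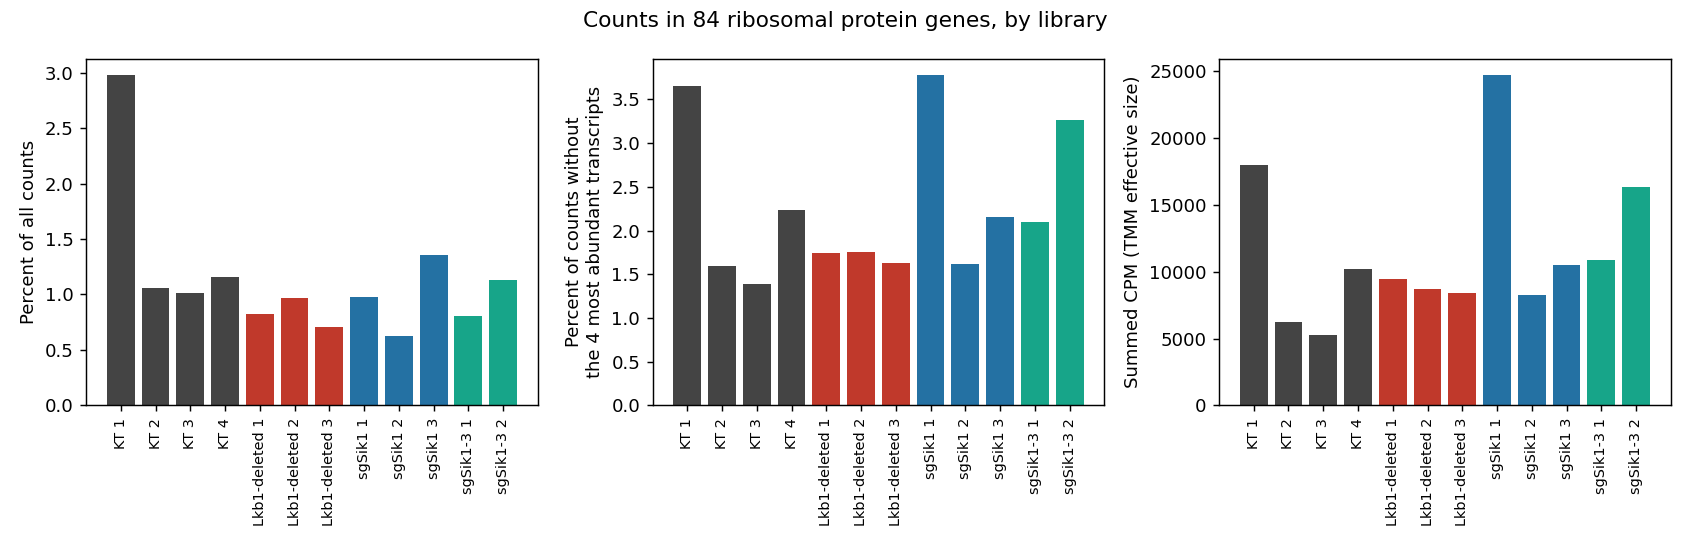
Counts in the 84 ribosomal protein genes in each of the 12 libraries: percent of all counts (left), percent of counts without the 4 most abundant transcripts (middle) and summed CPM on TMM sizes (right); bars are single libraries, coloured by group. KT replicate 1 leads at 2.98% on the left, and sgSik1 replicate 1 leads at 24722 CPM on the right.

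The 2 subunits held steady parts of the family in most libraries. Small-subunit genes took 35.6% to 40.0% of ribosomal protein counts in 11 libraries and 30.9% in sgSik1 replicate 1. Levels between genes were compared per kilobase of messenger RNA. The highest mean levels over the 12 libraries were those of Rpl32 (564 CPM per kb), Rpl41 (542), a very short basic protein, and Rpl4 (516), a large-subunit protein that lines the exit tunnel. The median of the 80 tested members was 162 CPM per kb, the value also of Rplp0. Before division by length, Rpl4, Rps4x, Rpl21 and Rpl32 were among the 5 members of highest mean CPM, at 793, 334, 322 and 292 CPM. Rpl26, whose protein is also known to regulate p53 translation, was the lowest core member tested, at 7.8 CPM and 14.8 CPM per kb. Its values ran from 3.15 CPM in KT replicate 3 to 14.1 CPM in sgSik1-3 replicate 2, so it was low in every library.

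With Sik genes targeted, most ribosomal protein genes had higher estimates than in KT, but no member passed the test. The test was edgeR's quasi-likelihood test with Benjamini-Hochberg adjustment over 13575 genes, and a gene was called at an adjusted p under 0.05. It called 0 of 80 members, against 12.4% of all tested genes, and 6 members (7.5%) had an unadjusted p under 0.05, against 28.5% of all genes. DESeq2 called 3 members, Rpl4, Rplp0 and Rps26, all higher, against 2526 of 13575 genes. By limma-voom 0 members were called, against 1876 genes. The median log2 change of the members was 0.37, with 57 estimates above 0 and 23 below, beside a median of -0.03 over all tested genes. Scaled to total counts alone it was -0.78, with 3 above and 77 below, beside -1.06 over all genes. On that scale 7 members were called lower, where 4565 of 13575 genes were called in either direction. On TMM sizes the median was 0.20 for the 33 small-subunit and 0.45 for the 47 large-subunit members.

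Rplp0, the base of the ribosomal stalk, had levels of 188, 115, 102 and 110 CPM across KT replicates 1 to 4. The sgSik1 libraries held 581, 159 and 214 CPM, and the sgSik1-3 libraries 222 and 402 CPM. Of the Sik-targeted libraries only sgSik1 replicate 2 fell inside the KT range. The log2 change of Rplp0 was 1.28 (SE 0.42), with an edgeR adjusted p of 0.0583. Its log2 change was 0.93 (edgeR adjusted p 0.109) when sgSik1 replicate 1 was left out.

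Rpl4 had levels of 539, 502, 443 and 667 CPM in KT. The sgSik1 libraries held 1520, 674 and 627 CPM of it, and the sgSik1-3 libraries 1100 and 1490 CPM. Both sgSik1-3 libraries and sgSik1 replicates 1 and 2 lay above every KT library, and sgSik1 replicate 3 lay below KT replicate 4. Its log2 change was 0.99 (SE 0.35, edgeR adjusted p 0.0741). Scaled to total counts alone, in place of TMM sizes, the Rpl4 change was -0.15.

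Rps26, a small-subunit protein at the messenger RNA exit channel, had levels of 148, 41.9, 42 and 73.7 CPM in KT. Its levels were 620, 74.9 and 121 CPM with sgSik1 guides and 126 and 163 CPM with sgSik1-3 guides. KT replicate 1 overlapped the Sik-targeted range, and the other 3 KT libraries lay below all 5 Sik-targeted ones. Its log2 change was 1.52 (SE 0.57, edgeR adjusted p 0.0948). With sgSik1 replicate 1 left out it was 0.66 (adjusted p 0.27), and with KT replicate 1 left out as well it was 1.17 (adjusted p 0.0429).

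Rpl10a, a protein of the mobile arm of the large subunit, had levels of 212, 85.6, 82.3 and 169 CPM in KT. The level was 915, 115 and 218 CPM with sgSik1 guides and 180 and 325 CPM with sgSik1-3 guides. Its log2 change of 1.34 (SE 0.53, edgeR adjusted p 0.107) was 0.59 without sgSik1 replicate 1, which held 915 CPM. The next 4 by p, Rpl6, Rpl13a, Rpl15 and Rps6, had log2 changes of 0.97, 1.03, 0.63 and 0.63 with edgeR adjusted p between 0.128 and 0.187. Rpl13a is known also for a role in translational silencing after interferon, and Rps6 is the protein that S6 kinase phosphorylates downstream of mTORC1. Scaled to total counts alone, their 4 log2 changes were -0.25, -0.24, -0.33 and -0.30. With sgSik1 replicate 1 left out they were 0.56, 0.55, 0.54 and 0.76.

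Left out alone, KT replicate 1 moved the members' median to 0.88, sgSik1 replicate 1 moved it to 0.10, and KT replicates 2 and 3 each moved it to 0.15. Without sgSik1 replicate 2, 4 members were called, Rpl10a, Rpl4, Rplp0 and Rps26, all higher, against 2126 of 13510 genes. Rplp0 alone was called without Lkb1-deleted replicate 1 (edgeR adjusted p 0.0437) or replicate 3 (0.0494), and Rpl29 alone without KT replicate 4. Over all genes, 2655 of 15260, 1744 of 15260 and 1044 of 13429 were called in those fits, in that order. With KT replicate 1 and sgSik1 replicate 1 both left out, chosen after seeing the data, the median was 0.62. In that fit 77 of 79 estimates were above 0. It called 3 members, Rpl5, Rps6 and Rps26, all higher, against 819 of 13204 genes. Without KT replicates 2 and 3 the median was -0.20, so the direction of the family rests on which KT libraries stand for the control. No member's 5 Sik-targeted libraries all lay outside the range of the 4 KT libraries, against 16.1% of all tested genes.

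**Figure D2:**
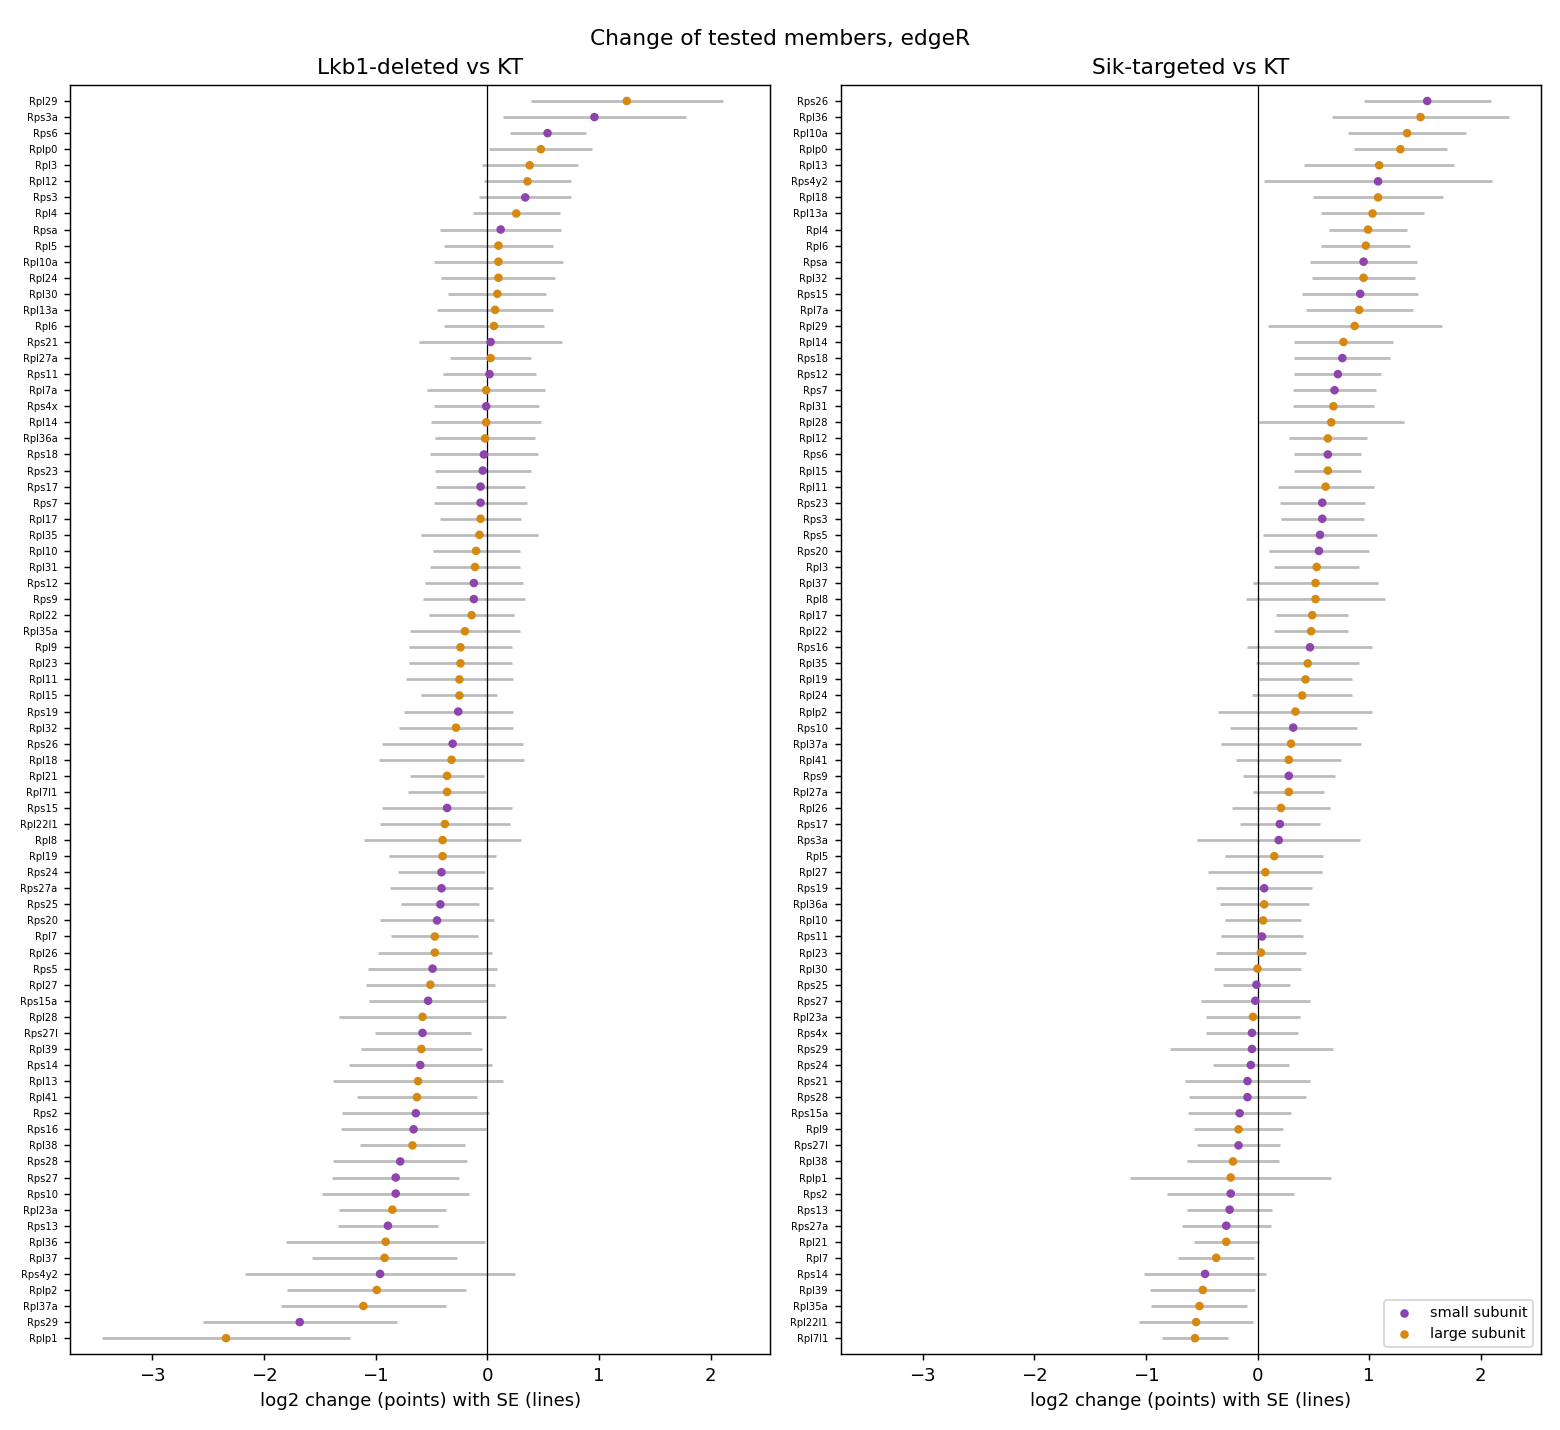
Log2 change of 78 of the 80 tested members (points, edgeR) with its standard error (grey lines) in Lkb1-deleted against KT (left) and Sik-targeted against KT (right), sorted by change. Most points lie left of 0 on the left panel and right of 0 on the right panel (60 and 57 of all 80 tested members), with no member called in either.

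With Lkb1 deleted, most edgeR estimates were lower than in KT and again none passed. By the same edgeR fit 0 of 80 members were called, against 1.16% of all tested genes. An unadjusted p under 0.05 was reached by 0 members, against 13.1% of all genes, and DESeq2 and limma-voom also called 0. The members' median log2 change was -0.25, with 20 estimates above 0 and 60 below, beside -0.04 over all genes. By limma-voom the median was -0.02, with 38 above and 42 below, beside -0.10 over all genes. Without a low-count filter it was -0.25 beside -0.62 over all genes, so it then lay above that of all genes. The median SE of a single member was 0.49 on the log2 scale. The smallest edgeR adjusted p of any member was 0.395.

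Rplp1, an acidic stalk protein that helps recruit elongation factors, gave that p. Its levels were 547, 32.3, 28 and 73.5 CPM in KT against 34.3, 34.6 and 32.5 CPM in Lkb1-deleted libraries. The Lkb1-deleted values lay in a narrow band inside the KT range, and KT replicate 1 was far above all others of both groups. The log2 change of -2.34 (SE 1.11) became -0.42 (edgeR adjusted p 0.917) without KT replicate 1.

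Rps13 had 140, 37.3, 31.2 and 51.5 CPM in KT against 35, 35.2 and 35.9 CPM in Lkb1-deleted libraries, a log2 change of -0.89 (SE 0.45, edgeR adjusted p 0.423). Rps29, a small zinc-binding protein, had 214, 28.6, 16.8 and 37.7 CPM in KT against 19.8, 29.3 and 20.7 CPM in Lkb1-deleted libraries, a log2 change of -1.68 (SE 0.87, edgeR adjusted p 0.446). Without KT replicate 1 the log2 changes of Rps13 and Rps29 were -0.20 and -0.27 (edgeR adjusted p 0.888 and 0.939). In both genes KT replicate 1 was the high library, and the other 3 KT libraries overlapped the Lkb1-deleted ones. Rpl23a, Rpl37a and Rps27 had log2 changes of -0.85, -1.11 and -0.82, and Rpl29 had 1.25, with edgeR adjusted p between 0.49 and 0.599. Without KT replicate 1 the first 3 were -0.25, -0.19 and -0.12.

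Rps6 was the 1 member whose groups did not overlap, against 14.7% of all tested genes. Its levels were 113, 63.1, 51.4 and 100 CPM in KT against 125, 120 and 114 CPM in Lkb1-deleted libraries, with a log2 change of 0.54 (SE 0.34, edgeR adjusted p 0.54). The lowest Lkb1-deleted library lay only just above the highest KT library. Without KT replicate 1 the members' median turned to 0.24, with 60 estimates above 0. The negative median therefore rests on that KT library.

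**Figure D3:**
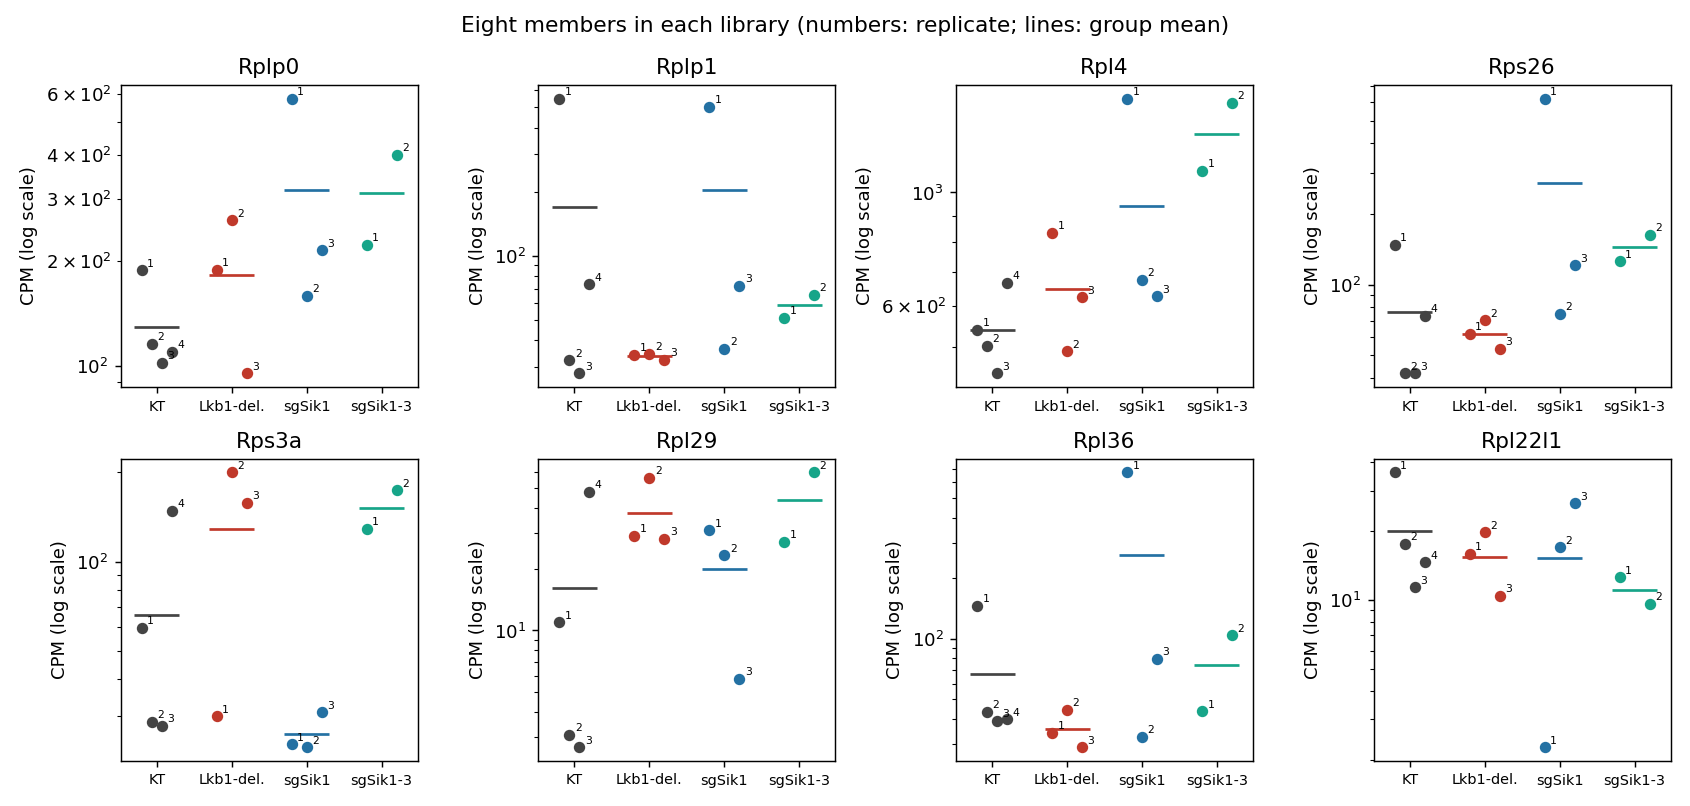
CPM (log scale) of 8 members in each library; points are libraries labelled with their replicate number, and lines are group means. Rplp1, Rps26 and Rpl36 are led by sgSik1 replicate 1 or KT replicate 1, whereas Rps3a and Rpl29 split libraries of the same group into high and low.

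Against each other, the 2 engineered genotypes differed mostly in one direction. The Lkb1-deleted libraries had lower estimates than the Sik-targeted ones for 72 of 80 members, with a median log2 difference of -0.63 beside -0.02 over all genes. Scaled to total counts alone the median was -0.23, with 27 above 0 and 53 below, beside 0.25 over all genes. The edgeR test called 0 members, against 0.221% of all genes. An unadjusted p under 0.05 was reached by 9 members (11.2%), all lower, against 12.7% of all genes, and DESeq2 and limma-voom called 0. In 9 members every Lkb1-deleted library lay below every Sik-targeted one, against 5.37% of all genes in either direction, among them Rps26, Rplp1, Rpl19, Rps13 and Rpl38.

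Rps26 had the smallest p, with Lkb1-deleted libraries at 61.9, 70.4 and 53.2 CPM and Sik-targeted ones from 74.9 to 620 CPM. Its log2 difference was -1.83 (SE 0.65, edgeR adjusted p 0.254), and -0.96 (adjusted p 0.358) once sgSik1 replicate 1 was left out. Rpl15 followed at -0.88 (SE 0.33, edgeR adjusted p 0.282), from 123, 105 and 74.1 CPM in Lkb1-deleted against 118 to 242 CPM in Sik-targeted libraries. Leaving out any 1 library kept the members' median between -0.73 and -0.41.

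The guide sets were also compared with KT separately, in an edgeR fit of 4 title groups and 15303 genes. In sgSik1 against KT, 0 of 80 members were called, against 3.84% of all genes. An unadjusted p under 0.05 was reached by 8 members (10%), against 24.4% of all genes. DESeq2 called 1 member (Rps26), against 1445 of 15303 genes, and limma-voom called 0, against 850. The median log2 change was 0.34 beside -0.10 over all genes, and it became -0.14 without sgSik1 replicate 1 and 0.87 without KT replicate 1. Rps26 and Rpl10a led with 1.83 (SE 0.61, edgeR adjusted p 0.0978) and 1.60 (SE 0.57, adjusted p 0.115). Without sgSik1 replicate 1 these were 0.34 and 0.25. Without sgSik1 replicate 2 instead, 5 members were called, Rpl10a, Rpl18, Rpl36, Rplp0 and Rps26, all higher, against 1160 of 15268 genes. In 2 members the groups did not overlap, against 18.9% of all genes: Rpl15 was higher and Rpl7l1 lower in sgSik1.

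In sgSik1-3 against KT, 0 of 80 members were called, against 2.89% of all genes. An unadjusted p under 0.05 was reached by 5 members (6.25%), against 20.5% of all genes. DESeq2 called 1 member (Rpl4), against 1296 of 15303 genes, and limma-voom called 0, against 367. The median was 0.30 beside -0.25 over all genes. Rpl4 led with a log2 change of 1.27 (SE 0.43, edgeR adjusted p 0.118). It was called (edgeR adjusted p 0.0415) in the fit without sgSik1 replicate 1, where 729 of 15267 genes were called. Rps12, a small-subunit protein, had 237 and 261 CPM in sgSik1-3 against 187, 70.9, 53.8 and 136 CPM in KT, a log2 change of 1.16 (SE 0.46, edgeR adjusted p 0.175). In 5 members both sgSik1-3 libraries lay above every KT library, against 35.8% of all genes in either direction: Rpl4, Rps12, Rplp0, Rps6 and Rpl12. The median was 0.85 without KT replicate 1 and -0.02 without sgSik1-3 replicate 2. The latter fit leaves the group with 1 library, which is assumed to vary like the others.

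Between the 2 guide sets no member's difference passed the test. The median log2 difference of sgSik1-3 from sgSik1 was -0.04, with 39 estimates above 0 and 41 below, beside -0.14 over all genes. Without sgSik1 replicate 1 it was 0.45, with 73 above and 7 below, and edgeR again called 0 members. The edgeR test called 0 members and 0% of all genes. An unadjusted p under 0.05 was reached by 1 member (1.25%) against 3.45% of all genes, and DESeq2 and limma-voom called 0 members. In 11 members the sgSik1-3 libraries lay above all sgSik1 libraries, against 14.9% of all genes in either direction. The 1 member with an unadjusted p under 0.05 was Rps3a, a protein of the small-subunit platform, at 24.1, 23.6 and 30.9 CPM in sgSik1 and 129 and 174 CPM in sgSik1-3. Its log2 difference was 2.53 (SE 0.72, unadjusted p 0.00302 and adjusted p 1 by edgeR's quasi-likelihood test). Since this group of comparisons shares the KT libraries and the 3-genotype fit pools both guide sets, they are not independent of each other.

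Members did not move as a block in every library. For each member and library, the departure was taken as log2 (CPM + 0.5) minus the library's mean over the 80 tested members, minus the member's own mean over libraries. The standard deviation of the departures over members was 1.23 in sgSik1 replicate 1 and 0.62 in KT replicate 1, and between 0.33 and 0.43 in the other 10 libraries. The steadiest members were Rpl19, Rps9 and Rpl22, with standard deviations over libraries of 0.16, 0.17 and 0.18 on that log2 scale. The least steady were Rpl29, Rps3a and Rpl22l1, at 1.32, 1.30 and 1.17.

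**Figure D4:**
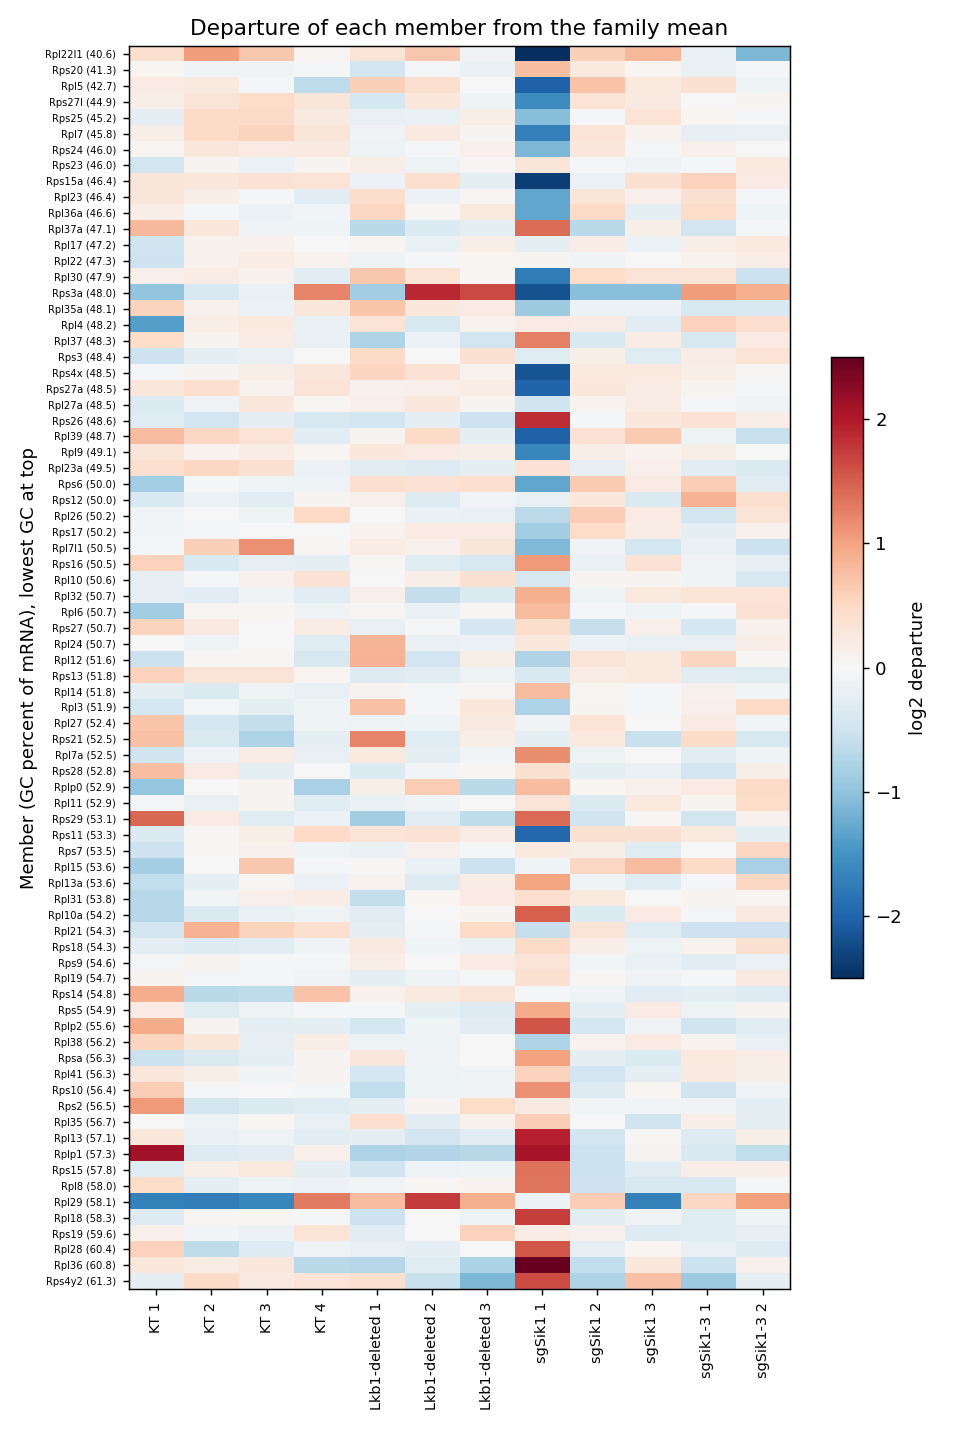
Departure of 78 of the 80 tested members (rows, sorted by GC percent of the messenger RNA, lowest at the top) from the family mean in each of the 12 libraries (columns), in log2 units; red is above and blue below. The sgSik1 replicate 1 column runs mostly from blue at the top to red at the bottom, with exceptions, and the rows of Rps3a and Rpl29 split the libraries.

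In sgSik1 replicate 1 the departures followed the base composition of the messenger RNA. Across the 80 members, Spearman's rho with GC percent was 0.60, and it was 0.72 across 9750 genes of all kinds. In the other 11 libraries rho over members lay between -0.41 and 0.03. Over all genes it lay between -0.46 in sgSik1 replicate 2 and 0.26 in sgSik1-3 replicate 2. Each departure is taken from a mean that includes sgSik1 replicate 1, so the trend of that library shifts the others the opposite way. The 27 members of lowest GC (40.6% to 49.5%) departed by a median of -1.12 in that library. The median departure was 0.24 for the middle 27 and 0.89 for the 26 of highest GC (54.0% to 61.3%). In KT replicate 1 the departures followed length instead, with rho of -0.45 over members and -0.30 over all genes. Elsewhere rho with length over members lay between -0.17 in KT replicates 2 and 4 and 0.31 in Lkb1-deleted replicate 1. In KT replicate 1 the 27 shortest messenger RNAs departed by a median of 0.26, the middle 27 by 0.07 and the 26 longest by -0.44. These correlations are across genes of the same library, which are not independent replicates, and the part of base composition and length in the comparisons above was not tested.

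The first 30 bases of the coding sequence of 4 members, from GENCODE M21 on GRCm38, show the contrast in composition, with G and C in capitals.

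Rpl36: atGGCtCtGCGCtaCCCCatGGCCGtGGGC
Rpl13: atGGCGCCCaGCCGGaatGGCatGataCtG
Rps15a: atGGtGCGaatGaatGttCtGGCGGatGCt
Rpl39: atGtCttCtCaCaaGaCtttCCGaatCaaG

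Of the 30 bases, 21 are G or C in Rpl36, 18 in Rpl13, 15 in Rps15a and 12 in Rpl39. The whole messenger RNAs hold 60.8%, 57.1%, 46.4% and 48.7% GC in the same order. Rpl36, a large-subunit protein, stood at 672 CPM in sgSik1 replicate 1 and at 29 to 145 CPM in the other 11 libraries. Rpl13 stood at 957 CPM there and at 64.9 to 316 CPM elsewhere. Rps15a did the opposite, holding 28.7 CPM in sgSik1 replicate 1 and 54.7 to 197 CPM in the others. Rpl39, a tunnel protein of the large subunit, stood at 17 CPM there and at 25.5 to 132 CPM elsewhere. These 2 GC-rich members were thus highest and these 2 GC-poorer members lowest in the same library. They are examples, and not every member followed its composition there. Rps26, Rpl37 and Rpl37a, at 48.6%, 48.3% and 47.1% GC, departed by 1.85, 1.25 and 1.40 in sgSik1 replicate 1. Rpl39, of nearly the same GC as Rps26, departed by -2.03.

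**Figure D5:**
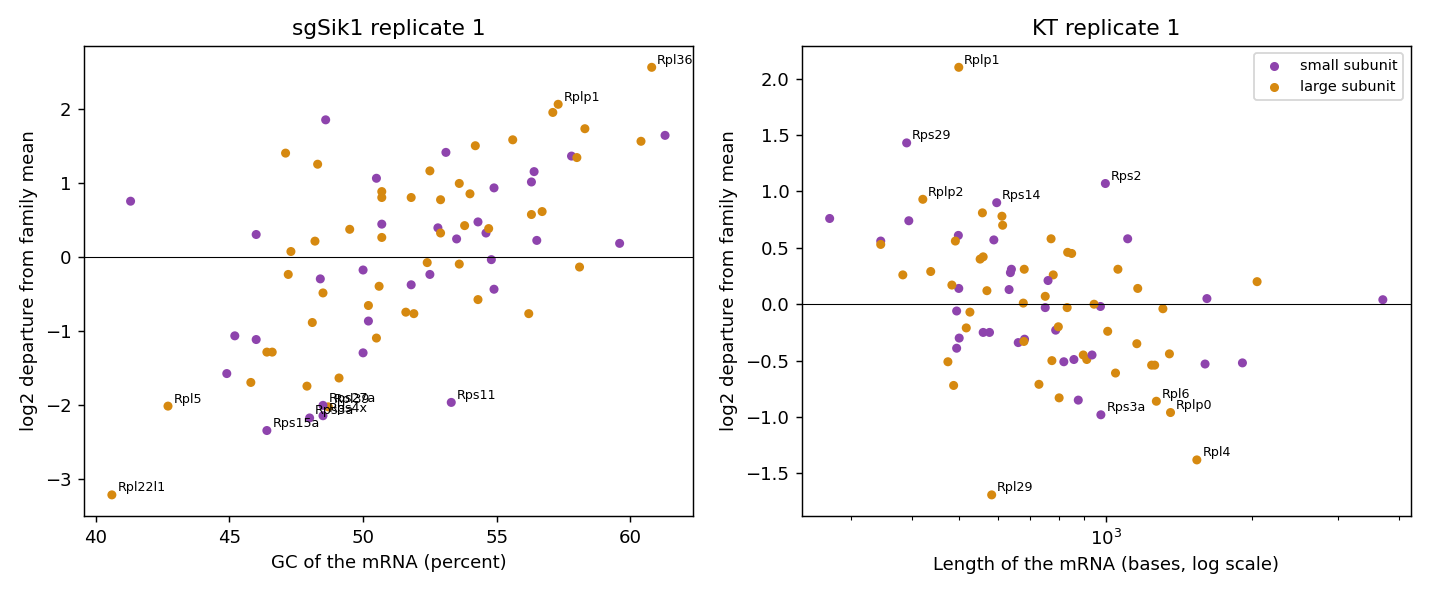
Departure of each tested member in sgSik1 replicate 1 against GC percent of its messenger RNA (left), and in KT replicate 1 against messenger RNA length in bases on a log axis (right); points are genes, coloured by subunit. Departures climb with GC on the left (rho 0.60) and fall with length on the right (rho -0.45).

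The stalk proteins Rplp1 and Rplp2, which form dimers on Rplp0, were the clearest case of members set by 2 libraries. Rplp1 stood at 547 CPM in KT replicate 1, at 499 CPM in sgSik1 replicate 1 and at 28 to 73.5 CPM in the other 10 libraries. Rplp2 stood at 346 and 506 CPM in those libraries and at 41.4 to 120 CPM in the others. Rplp0 was less far from the rest in KT replicate 1, with 188 CPM there and up to 402 CPM in other libraries outside sgSik1 replicate 1. Per kilobase over all libraries, the means were 162 CPM for Rplp0, 252 for Rplp1 and 311 CPM for Rplp2.

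Rps3a and Rpl29 split the libraries into high and low, in ways that followed the groups only in part. Rps3a (chr3:86137940-86142702, annotated as Rps3a1) had 59.8, 28.8, 27.9 and 148 CPM in KT against 30, 200 and 157 CPM in Lkb1-deleted libraries. With the sgSik1 and sgSik1-3 values above, 5 libraries lay between 129 and 200 CPM and 7 between 23.6 and 59.8 CPM. The high libraries were KT replicate 4, Lkb1-deleted replicates 2 and 3 and both sgSik1-3 libraries, so KT and Lkb1-deleted each held both kinds. Its log2 changes were 0.96 (SE 0.82) with Lkb1 deletion and 0.19 (SE 0.73) with Sik targeting, with edgeR adjusted p of 0.691 and 0.899.

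Rpl29 (chr9:106429454-106431568), a large-subunit protein, had 11, 3.07, 2.68 and 47.9 CPM in KT against 29.1, 56.1 and 28.2 CPM in Lkb1-deleted libraries. Its levels were 30.9, 23.3 and 5.79 CPM with sgSik1 guides and 27.3 and 59.7 CPM with sgSik1-3 guides. Thus 4 libraries, KT replicates 1 to 3 and sgSik1 replicate 3, lay at or below 11 CPM and 8 at or above 23.3 CPM, a range of 22.3-fold. All Lkb1-deleted and sgSik1-3 libraries were among the high ones, while KT and sgSik1 each held both kinds. Of the 100-base windows of its messenger RNA 38% occur nowhere else among annotated transcripts, and 27 other genes share windows with it, so its counts may be split with copies. For Rps3a these values were 54.7% and 6 genes.

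Paralogs of core members were present at lower levels. Rps27l, a p53-induced paralog of Rps27, held 19.9% as many counts as Rps27 over all libraries, from 4.82% in sgSik1 replicate 1 to 38.2% in sgSik1 replicate 2. Rpl22l1 held 19.5% as many as Rpl22, from 1.25% in sgSik1 replicate 1 to 27.9% in KT replicates 1 and 2. Rpl7l1 held 8.41% as many as Rpl7, with 5.97% to 13.2% in single libraries. Rps4y2, annotated now as the transcribed pseudogene Rps4l, held 0.341% as many as Rps4x overall and 5.68% in sgSik1 replicate 1. Apart from Rpl7l1, each of these ratios had its extreme value in sgSik1 replicate 1, the library in which departures followed GC. Rps27l and Rpl22l1 have messenger RNAs of 44.9% and 40.6% GC, and Rps4y2 has 61.3%.

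None of these paralogs was called by edgeR on TMM sizes, and Rpl7l1 was among 7 members called lower in Sik-targeted against KT when libraries were scaled to total counts alone. Rpl22l1 had 36.1, 17.6, 11.3 and 14.6 CPM in KT against 15.9, 19.7 and 10.5 CPM in Lkb1-deleted libraries, with 2.27 CPM in sgSik1 replicate 1 and 9.61 to 26.4 CPM in the other Sik-targeted libraries. Its log2 changes were -0.38 (SE 0.58) and -0.55 (SE 0.51), with edgeR adjusted p of 0.846 and 0.511. Rps27l had -0.58 (SE 0.43) and -0.17 (SE 0.37), with adjusted p of 0.627 and 0.821. The muscle paralog Rpl3l had 12 counts over all libraries, Rpl39l had 4 and Rpl10l had 1, the last of these known from testis.

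Rpl34 was the 1 core gene almost without counts. It had between 0 and 8 counts in each library and 45 in all, at most 2.27 CPM in any library, while 69% of its 100-base windows are unique among annotated transcripts. Across the 84 members the unique share had a median of 58.6%, was under 50% in 36 members and was 100% in 9. The lowest was 1.63% in Rps27, which nevertheless had 11447 counts. Over the members rho between unique share and mean level was -0.15, given as a description. Of the libraries' reads, those mapping to several copies may be counted or dropped, and the handling is not given in the sources used here.

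Genes that share the TOP motif or act on ribosome production gave a small number of calls, all with Sik genes targeted. Of 22 other TOP and elongation genes tested, edgeR called 3 higher and 1 lower in Sik-targeted against KT, a comparison in which 12.4% of all tested genes were called, with a median log2 change of 0.29. Npm1, a nucleolar chaperone, averaged 980 ± 454 CPM (SD, n = 5) against 353 ± 64.6 CPM in KT (SD, n = 4), a log2 rise of 1.45 (SE 0.36, edgeR adjusted p 0.0202). Pabpc1, the poly(A)-binding protein, rose by 1.13 (edgeR adjusted p 0.0281) and Eef2, the translocation factor, by 1.57 (adjusted p 0.0427). Eef2 averaged 2340 ± 1890 CPM (SD, n = 5) against 781 ± 275 CPM in KT (SD, n = 4). Its change was 1.78 (edgeR adjusted p 0.0636) with sgSik1 guides and 1.22 (adjusted p 0.234) with sgSik1-3 guides. Eif4a2, an RNA helicase of initiation, fell by 1.35 (adjusted p 0.0417). In the same comparison 0 of 35 ribosome biogenesis genes were called, with a median of 0.39 and 9 at an unadjusted p under 0.05, where 28.5% of all genes were. The closest were Nob1 at 1.31 (adjusted p 0.0517) and the nucleolar protein nucleolin, Ncl, at 0.98 (adjusted p 0.0569).

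For the counts that follow, 12.4% of all tested genes were called in Sik-targeted against KT. Of 74 mitochondrial ribosomal protein genes tested, 1 was called higher in Sik-targeted libraries, Mrps6 at 1.83 (SE 0.54, edgeR adjusted p 0.0389). The list median was 0.10. Of 8 MYC family genes 1 was called, Myc, at 142 ± 139 CPM (SD, n = 5) against 29 ± 18.1 CPM in KT (SD, n = 4), a log2 rise of 2.28 (edgeR adjusted p 0.0252). Of 22 genes of the mTORC1 pathway 1 was called, Sesn1, an inhibitor of the pathway, which fell by 1.43 (adjusted p 0.0328). Of 12 genes of the p53 response, Cdkn1a rose by 2.87 (edgeR adjusted p 0.0152) and Trp53 by 1.14 (adjusted p 0.0255). Sesn1, in this list too, fell. Cdkn1a averaged 975 ± 1220 CPM (SD, n = 5) against 132 ± 50.5 CPM in KT (SD, n = 4). Its change was 3.38 (edgeR adjusted p 0.00993) with sgSik1 guides and 1.54 (adjusted p 0.2) with sgSik1-3 guides. Values of these lists without KT replicate 1 or sgSik1 replicate 1 are not given here.

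In Lkb1-deleted against KT none of the genes in these 6 lists was called by edgeR, where 2 other TOP and elongation genes, 2 biogenesis, 5 mitochondrial ribosomal, 2 MYC family, 2 mTORC1 and 3 p53 genes had an unadjusted p under 0.05. Over all tested genes of that comparison 13.1% did, and 1.16% were called. The list medians were 0.08, 0.20, -0.18, 0.38, 0.04 and 0.35 in that order. The smallest adjusted p in each list were 0.255 for Npm1 (log2 change 1.03), 0.2 for Ncl (1.02), 0.0665 for Mrpl33 (-1.56), 0.13 for Myc (2.17), 0.0746 for Ddit4 (2.35) and 0.128 for Trp53 (1.12). For Npm1, Ncl, Myc and Trp53 the estimates had the same sign as in Sik-targeted libraries, and both comparisons use the same KT libraries.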

How the data were processed

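RNA from sorted tumour cells was amplified to cDNA, made into libraries and sequenced as read pairs, per the labels' protocols. Per the submitters' processing notes, STAR 2.4.2a, HTSeq and the mm10 genome were used. The annotation, strand setting and handling of multiply mapped reads were not given in the sources used here. What the authors deposited was 1 table of raw counts for 30743 genes in 12 libraries, and every column matched 1 sample by title. No 2 libraries of a group were duplicates (chi-square of at least 15.1 per degree of freedom).

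Tests used edgeR 4.0.16 under R 4.3.3 (TMM, filterByExpr by group, robust quasi-likelihood fit, 2-sided F test, Benjamini-Hochberg over all tested genes, threshold 0.05). All 12 libraries entered a fit of 3 genotype groups (13575 genes) and a fit of 4 title groups (15303 genes), so groups share the estimate of the spread. The SE is the absolute log2 change over the square root of F. CPM used TMM effective sizes of the second fit, where 3 counts correspond to 0.165 to 0.852 CPM. Scripts were tested on simulated data. DESeq2 1.42.0 and limma 3.58.1 were alternatives.

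GC, length and unique windows came from 1 transcript per gene of GENCODE M21 (principal, longest coding sequence, then shortest); 82 of 84 symbols matched directly and 2 by an older symbol. Members named are those with the 8 smallest p in either genotype comparison with KT, the 5 highest mean CPM, the stalk genes, paralogs and the 3 most and least steady; others were named after their values were seen. The members and lists were chosen with earlier results of these data known. No protein sequence was used. Results of 2 members are not reported here by name, and both are left out of the plots that name every member.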

Additional observations from a re-analysis of the deposited data

Results flagged for a closer look

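In each group of 4 or 5 libraries, a value was marked when the gap between the extreme library and its neighbour was a large part of the group's range by Dixon's test at 95%. This marked 14 of 34 groups of values examined. The genes examined were partly chosen by their values in these data, and they share the same libraries. The count is therefore a description and cannot be set against a chance rate. All 14 fell on KT replicate 1 (7) or sgSik1 replicate 1 (7).

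KT replicate 1 was far above the other KT libraries in the family's share of counts, 2.98% against at most 1.16%. It was also far above them in Rplp0 (188 against at most 115 CPM), Rplp1 (547 against 73.5), Rplp2 (346 against 82.4), Rps29 (214 against 37.7), Rpl36 (145 against 43.3) and Rpl39 (132 against 34.4 CPM). In that library the departures of members followed messenger RNA length, with rho of -0.45.

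sgSik1 replicate 1 was far below the other Sik-targeted libraries in the small-subunit percent of ribosomal protein counts, 30.9% against at least 37.1%. It was far above them in Rplp1 (499 against at most 72.3 CPM), Rplp2 (506 against 120), Rps26 (620 against 163), Rpl10a (915 against 325), Rps29 (197 against 67.3) and Rpl36 (672 against 104 CPM). In that library the 4 most abundant transcripts took 74.2% of counts and departures followed GC percent, with rho of 0.60. The part of either property in these values was not tested.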

How the results depend on the processing

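Scaling to total counts alone moved the median of all genes by -0.74, -1.03, -0.96 and -1.16 (Lkb1-deleted, Sik-targeted, sgSik1 and sgSik1-3 against KT) and the members' medians to -1, -0.78, -0.76 and -0.81. In Sik-targeted against KT, 7 members were then called lower, where 4565 of 13575 genes were called in either direction. The log2 changes of Rpl4, Rpl6, Rpl13a, Rpl15 and Rps6 turned to -0.15, -0.25, -0.24, -0.33 and -0.30. Rps6 with Lkb1 deletion turned to -0.17. The members' median minus that of all genes kept its sign there: -0.21, 0.29, 0.31 and 0.59. In Lkb1-deleted against Sik-targeted the median was -0.23 beside 0.25 over all genes. Without a low-count filter, members called were 2 (Lkb1-deleted against KT), 4 (Sik-targeted against KT) and 6 (Lkb1-deleted against Sik-targeted). They were 6 (sgSik1 against KT), 1 (sgSik1-3 against KT) and 1 (sgSik1-3 against sgSik1). Of the 25751 genes then tested, 846, 3654, 698, 1783, 1440 and 44 were called, in the same order. DESeq2 called 3, 1 and 1 members in Sik-targeted, sgSik1 and sgSik1-3 against KT, where 2526, 1445 and 1296 of all genes were called. Fitting only the 2 groups called 2 members in sgSik1-3 against KT, where 1941 of 14141 genes were called. The cause of these differences was not tested. Shares of counts without the 4 most abundant transcripts were 1.71%, 2.52% and 2.68% in Lkb1-deleted, sgSik1 and sgSik1-3, since the denominator is smaller.

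Leaving out 1 library at a time, members called ranged from 0 to 0 in Lkb1-deleted against KT and against Sik-targeted and in sgSik1-3 against sgSik1. They ranged from 0 to 4 in Sik-targeted against KT and from 0 to 5 in sgSik1 against KT (both highest without sgSik1 replicate 2), and from 0 to 1 in sgSik1-3 against KT. The medians ranged from -0.49 to 0.24, 0.10 to 0.88 and -0.73 to -0.41 in the comparisons of 3 genotypes, and from -0.14 to 0.87, -0.02 to 0.85 and -0.39 to 0.45 in those of title groups. Without sgSik1 replicate 1 the Rpl36 log2 difference of sgSik1-3 from sgSik1 turned from -1.82 to 0.43 (range -2.58 to 0.43 over single libraries left out), and to 0.40 with KT replicate 1 also left out. That last setting, chosen after seeing the data, called 3 members in Sik-targeted and 2 in sgSik1-3 against KT. Over all genes it called 819 of 13204 and 482 of 15152.

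Correlations between libraries could not decide whether replicate numbers pair the samples. The 15 same-numbered pairs correlated between -0.36 and 0.21, 5 of them over 0.1. The 38 other pairs lay between -0.27 and 0.36, with 8 over 0.1. Values were set against group means, so the 2 sgSik1-3 libraries mirror each other. With the replicate block, 0 members were called in any comparison, and the medians were 0.03, 0.46, -0.49, 0.46, 0.39 and 0.00. The first, for Lkb1-deleted against KT, was -0.25 without the block. RLE size factors, TMM without the ribosomal protein rows and limma-voom called 0 members in every comparison.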

Other observations

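Some rows near the family were kept out by the rule. Rpl36al, an expressed copy of Rpl36a, had 113 to 517 counts per library. The pseudogene row Rpl34-ps1 had 15 to 47 counts per library, more than the 0 to 8 counts of Rpl34 itself. The rows Rps15a-ps6, Rps15a-ps4 and Rps19-ps3 had 16 to 218, 2 to 54 and 1 to 38 counts per library, and Rplp2-ps1 had 0.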
